A study of Ovis aries with 24 samples.

Results

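The secretory granule and exocytosis genes described here are 38 named genes that load, process, hold or release the contents of hormone granules. They were found by exact gene name in tables of read counts from sheep pituitary cells, and 34 of the 38 had a feature of that name among 27054 features. VGF, PTPRN2, VAMP2 and RIMS1 had none and are not analysed here. The rule uses the names alone and no measured value, but the genes were chosen with earlier results of these data known.

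Endocrine cells store peptide hormones in dense-core granules, which bud from the trans-Golgi network with granins, the acidic proteins that condense in their core. Inside the granule, prohormone convertases, a carboxypeptidase and an amidating enzyme finish the hormones. On a calcium signal, SNARE proteins, synaptotagmins, RAB3 and RAB27 GTPases and priming factors fuse the granule with the plasma membrane, and in gonadotropes gonadotropin-releasing hormone (GnRH) gives that signal.

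The cells came from the pituitaries of ovariectomized Western white faced ewes, animals without ovarian estradiol, and were dispersed and cultured. At 24 h all cultures received an adenovirus that directs green fluorescent protein to gonadotropes, the cells that make luteinizing and follicle-stimulating hormone. After a further 3 days they were given 10 nM estradiol-17β (E2) or the ethanol vehicle for 6 h and went to fluorescence-activated cell sorting. The 4 groups of 6 libraries were sorted E2, sorted vehicle, unsorted E2 and unsorted vehicle. By the labels, sorted cells are gonadotropes and unsorted cells are anterior pituitary cells at large, and whether the unsorted cells passed through the instrument is not stated. No source used here names the promoter in the virus or the share of gonadotropes it reached. Nothing in the labels says that the 6 replicates are separate animals or cultures, so each p-value measures the spread between these samples, which may be technical.

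Depth came in 2 sets that cut across the groups: replicates 1 to 3 had 4185088 to 6189629 counts per library and replicates 4 to 6 had 19216735 to 37042448. Levels are given as CPM, read counts scaled to library size and not corrected for gene length, so levels of different genes are not compared. The sort could be checked against 8 gonadotrope markers, of which 6 had a feature of that name and 5 were tested. All 5 were higher in sorted vehicle libraries, with a median log2 fold change of 2.45. The summed level of the 6 was 2494 to 5635 CPM in sorted vehicle libraries, against 291.9 to 1324 CPM in unsorted vehicle libraries. Sorted cells were not free of other hormone cells: PRL, the lactotrope hormone, averaged 121600 CPM in sorted vehicle and 67490 CPM in unsorted vehicle libraries.

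The first question is how far the sort raised or lowered these genes. In vehicle libraries, sorted against unsorted, 25 of the 34 genes were higher, 2 were lower and 7 were not called (edgeR quasi-likelihood test, Benjamini-Hochberg adjusted p under 0.05). Across all 14468 genes tested, 24.4% were called higher and 25.8% lower. The 34 genes were chosen with earlier results of these data known, which limits what this contrast shows. The median log2 fold change was 0.84 over the 34 genes and 0.02 over all tested genes. In 18 of the 34 genes every sorted library lay above every unsorted one, as it did for 11.9% of all genes, and for 1 gene, CADPS2, every sorted library lay below, as for 15.8% of all genes. In E2 libraries, 25 of 33 tested genes were higher and 2 lower, against 25.8% and 26% of all genes, with a median log2 fold change of 0.94. Non-overlap there was seen for 18 genes upward, against 13.1% of all genes, and 2 downward, against 15.6%. With the replicate number as a block, 26 genes were higher and 2 lower in each comparison, against 32.5% and 31.1% of all genes in vehicle libraries and 33.9% and 31.8% in E2 libraries. In bulk RNA, a larger share of cells that express a gene and more of its RNA per cell cannot be told apart.

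**Figure D1:**
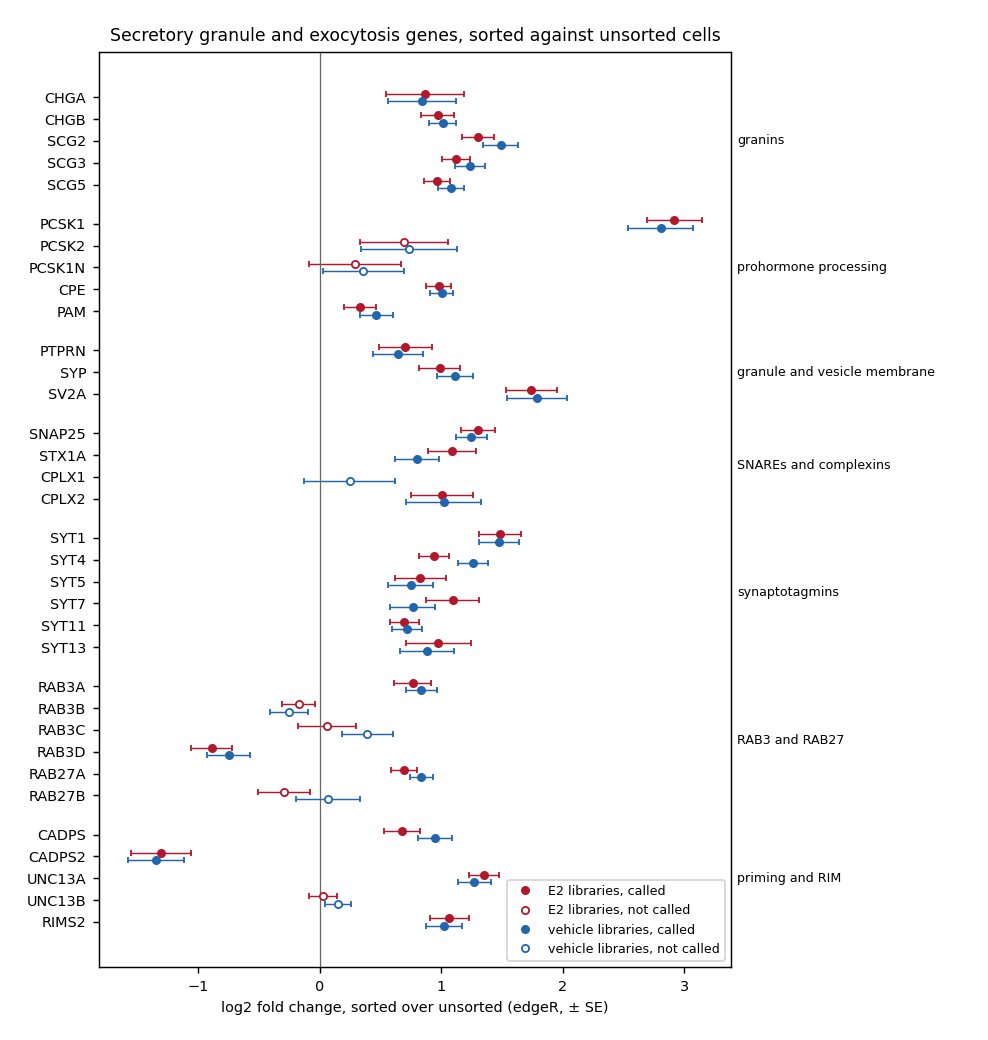
Log2 fold change of sorted over unsorted cells for each of the 34 genes, grouped by role, in E2 libraries (red) and in vehicle libraries (blue), with the edgeR standard error as bars. Filled points passed an adjusted p of 0.05. Most points lie between 0.5 and 1.5, PCSK1 lies near 2.8 to 2.9, and RAB3D and CADPS2 lie below 0 in both.

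The granins rose as a group, 5 of 5 tested in both comparisons. SCG2 (ENSOARG00000019783), secretogranin II, whose peptide products are stored with gonadotropins, had 5510.2, 5912 and 6698 CPM as lowest, median and highest in sorted vehicle libraries, against 1780.1, 1907 and 3072 CPM in unsorted vehicle libraries. All 6 sorted libraries lay above all 6 unsorted ones, and the sorted values were tight. The log2 fold change was 1.49 ± 0.14 (SE, adjusted p = 1.43e-06). It was 1.30 in replicates 1 to 3 and 1.73 in replicates 4 to 6, each fitted with the replicate block. Unsorted vehicle replicates 1 and 2 held the most SCG2 of their group, at 3072.3 and 2377.7 CPM.

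SCG3, secretogranin III, which ties the granule core to its membrane, had 2033, 2296 and 2727 CPM in sorted vehicle libraries, against 754, 967 and 1159 CPM in unsorted vehicle libraries. The groups did not overlap, and the log2 fold change was 1.24 ± 0.12 (adjusted p = 2.18e-06). CHGA, chromogranin A, gave the smallest change of the granins, with 141, 204.5 and 302 CPM in sorted vehicle libraries, against 58.3, 107.5 and 193 CPM in unsorted vehicle libraries. Here the groups overlapped, although the sorted library was higher in 6 of 6 pairs with the same replicate number. The log2 fold change of CHGA was 0.84 ± 0.28 (adjusted p = 0.0236). That call was lost without replicate 4 or 5 of the sorted group or replicate 1, 2 or 6 of the unsorted group (adjusted p 0.0513 to 0.0575). In E2 libraries the CHGA call (0.86 ± 0.32, adjusted p = 0.0372) was lost without sorted replicate 2, 4 or 5, without unsorted replicate 1, 2, 3 or 6 (0.0544 to 0.0974) and with no filter on low counts (0.0775). These losses are of the fit that does not pair libraries. Fitted with the replicate block, CHGA was called higher in both comparisons, at 0.89 ± 0.09 (adjusted p = 5.78e-06) in vehicle libraries. CHGB, chromogranin B, and SCG5, the chaperone of the convertase PCSK2, rose by 1.012 ± 0.11 and 1.08 ± 0.11 on the log2 scale, without overlap.

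Among the enzymes that process prohormones, PCSK1 (ENSOARG00000017599), a convertase that cuts prohormones at paired basic residues, had the largest fold change of the 34 genes. It had 49.4, 125.5 and 173 CPM in sorted vehicle libraries, against 13.3, 16.4 and 22.3 CPM in unsorted vehicle libraries. The groups did not overlap, yet sorted libraries differed among themselves, with replicates 1 and 2 the lowest. The log2 fold change was 2.81 ± 0.27 (adjusted p = 1.72e-06) in vehicle libraries and 2.92 ± 0.23 (adjusted p = 8.74e-07) in E2 libraries.

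CPE, the carboxypeptidase that trims the basic residues left by the convertases, had 493, 675 and 738 CPM in sorted vehicle libraries, against 289, 328.5 and 352 CPM in unsorted vehicle libraries. Every sorted library was above every unsorted one, at a log2 fold change of 1.00 ± 0.09 (adjusted p = 1.31e-06). PCSK1N, the gene of proSAAS, an inhibitor of PCSK1, did not pass the test. Its levels were 56.3, 92.3 and 144 CPM in sorted vehicle libraries, against 36.7, 71.0 and 126 CPM in unsorted vehicle libraries, with wide overlap. The log2 fold change was 0.36 ± 0.34 (adjusted p = 0.394), with 0.91 in replicates 1 to 3, which passed the blocked test (adjusted p = 0.00019), and 0.07 in replicates 4 to 6, which did not (adjusted p = 0.829).

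PCSK2, the second convertase, had 8.79, 17.5 and 37.2 CPM in sorted vehicle libraries, against 4.33, 10.55 and 18.99 CPM in unsorted vehicle libraries. Replicates 3 and 4 were the highest in every group, so the groups overlapped although sorted exceeded unsorted in 6 of 6 pairs. The log2 fold change was 0.74 ± 0.39 (adjusted p = 0.135) and passed the test only once same-numbered libraries were paired (0.71 ± 0.14, adjusted p = 0.0013). PAM, the enzyme that amidates peptide ends, rose by 0.47 ± 0.14 (adjusted p = 0.0108) in vehicle libraries. In E2 libraries its log2 fold change was 0.33 ± 0.13 (adjusted p = 0.0484). That call was lost without any of 9 of the 12 libraries, with DESeq2 (adjusted p = 0.058), with relative-log-expression size factors (0.0544) and with no filter on low counts (0.0543). Without sorted E2 replicate 2 the PAM value was 0.21 (adjusted p = 0.144). These losses are of fits that do not pair libraries. Same-numbered E2 pairs were at 1.02 to 1.49, sorted over unsorted, and PAM was called higher with the replicate block. The blocked fit of replicates 1 to 3 alone did not call it (0.23, adjusted p = 0.0834).

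The membrane proteins of granules and vesicles rose in 3 of 3 tested. SV2A, a transporter-like vesicle glycoprotein, had 10.3, 12.2 and 16.1 CPM in sorted vehicle libraries, against 1.396, 3.78 and 5.46 CPM in unsorted vehicle libraries. The groups stood well apart at a log2 fold change of 1.79 ± 0.25 (adjusted p = 4.36e-05). SYP, synaptophysin, had 79.1, 100.3 and 122 CPM in sorted vehicle libraries, against 33.0, 43.7 and 60.6 CPM in unsorted vehicle libraries.

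SYP did not overlap between the groups either, and its log2 fold change was 1.11 ± 0.15 (adjusted p = 3.72e-05). PTPRN, a tyrosine phosphatase-like protein of the granule membrane, had 375, 441 and 635 CPM in sorted vehicle libraries, against 227, 240.4 and 465 CPM in unsorted vehicle libraries. Its groups overlapped, and the log2 fold change was 0.65 ± 0.21 (adjusted p = 0.0174). The PTPRN call was lost without unsorted vehicle replicate 6 (adjusted p = 0.0501), in the fit that does not pair libraries. Same-numbered vehicle pairs were at 1.37 to 2.04, sorted over unsorted, and PTPRN was called higher with the replicate block.

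SNAREs and complexins rose in 3 of 4 tested in vehicle libraries. SNAP25, the plasma membrane SNARE of granule fusion, had 137, 164.5 and 215.5 CPM in sorted vehicle libraries, against 59.6, 70.5 and 82.97 CPM in unsorted vehicle libraries. No library crossed over, and the log2 fold change was 1.25 ± 0.13 (adjusted p = 2.72e-06). CPLX2, a complexin, a small protein that binds the assembled SNARE complex, had 6.32, 9.06 and 14.9 CPM in sorted vehicle libraries, against 1.78, 4.41 and 7.75 CPM in unsorted vehicle libraries.

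CPLX2 overlapped between the groups but was higher in 6 of 6 pairs, with a log2 fold change of 1.02 ± 0.31 (adjusted p = 0.013). CPLX1 was near the limit of these libraries, with 0.497, 0.943 and 1.85 CPM in sorted vehicle libraries, against 0.178, 0.847 and 1.36 CPM in unsorted vehicle libraries. Its log2 fold change was 0.25 ± 0.37 (adjusted p = 0.605), and it did not pass the filter on low counts in the E2 comparison of sorted with unsorted. STX1A, the partner SNARE of SNAP25, rose by 0.80 ± 0.18 in vehicle and 1.09 ± 0.20 in E2 libraries, without overlap in either. In vehicle libraries the groups nearly touched, with the lowest sorted library at 22.217 CPM and the highest unsorted one at 22.208 CPM.

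Synaptotagmins are membrane proteins that couple calcium to fusion or, for some members, act without binding it. All 6 among the 34 genes rose in both comparisons. Other synaptotagmins stand in the pathway lists described below, and of those SYT16 fell in E2 libraries. SYT1, a fast calcium sensor of release, had 70.7, 115 and 137 CPM in sorted vehicle libraries, against 30.5, 35.7 and 49.2 CPM in unsorted vehicle libraries. The groups did not overlap, and the log2 fold change was 1.48 ± 0.17 (adjusted p = 7.17e-06). SYT4, a granule synaptotagmin with little calcium binding of its own, had 240.4, 278 and 352 CPM in sorted vehicle libraries, against 96.0, 116 and 151 CPM in unsorted vehicle libraries.

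SYT4 also showed no overlap, at a log2 fold change of 1.26 ± 0.12 (adjusted p = 1.58e-06) in vehicle and 0.94 ± 0.13 (adjusted p = 4.11e-05) in E2 libraries. SYT11, a close relative of SYT4, gave the smallest change of the 6 synaptotagmins described here. It had 90.1, 140.0 and 156 CPM in sorted vehicle libraries, against 69.6, 83.8 and 90.9 CPM in unsorted vehicle libraries. Only the lowest sorted library reached into the unsorted range, and the log2 fold change was 0.72 ± 0.12 (adjusted p = 0.000286). SYT5, SYT7, a high-affinity calcium sensor, and SYT13 rose by 0.75 ± 0.18, 0.76 ± 0.19 and 0.88 ± 0.22 on the log2 scale in vehicle libraries, each higher in 6 of 6 pairs.

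**Figure D2:**
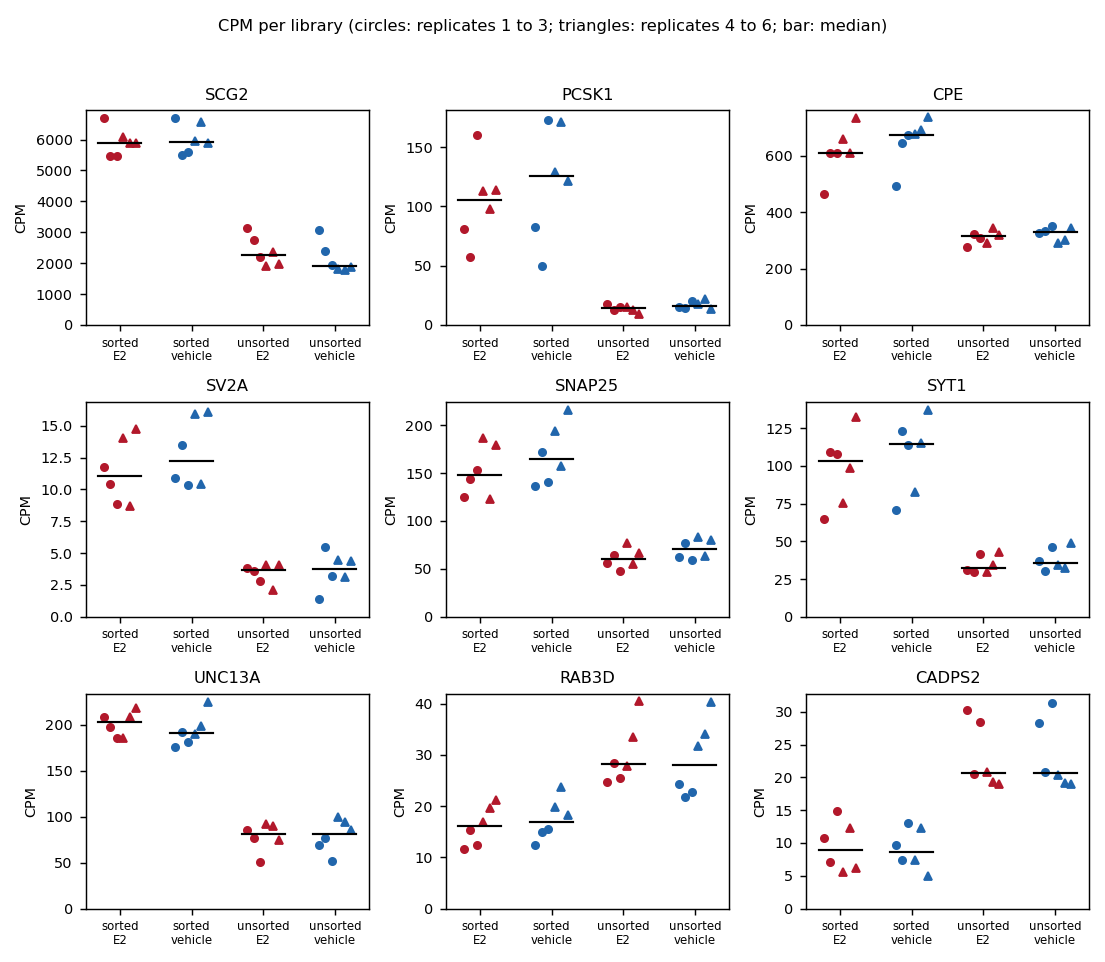
Level in CPM of 9 of the genes in each library of sorted E2, sorted vehicle, unsorted E2 and unsorted vehicle cells (red, E2; blue, vehicle; circles, replicates 1 to 3; triangles, replicates 4 to 6; bar, median of 6). SCG2 sorted libraries lie at 5466 CPM or above and unsorted ones at 3150.1 CPM or below, while RAB3D and CADPS2 are lower in sorted cells.

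RAB3 and RAB27 GTPases, which tether granules and bring them to release sites, did not move together. In both comparisons 2 of the 6 rose, 1 fell and 3 were not called. RAB27A had 163, 184 and 198 CPM in sorted vehicle libraries, against 84.8, 104.6 and 118 CPM in unsorted vehicle libraries. The groups did not overlap, and the log2 fold change was 0.84 ± 0.09 (adjusted p = 6.03e-06). In the current sheep RefSeq annotation the span of RAB27A, introns included, overlaps that of PIGBOS1. Exons were not compared, and the strand setting of the counting is not given. Whether the 2 genes share counted reads was not tested.

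RAB3A (ENSOARG00000013177), the RAB3 form known best from synaptic vesicles, had 44.9, 53.2 and 67.7 CPM in sorted vehicle libraries, against 23.7, 33.6 and 34.5 CPM in unsorted vehicle libraries. It showed no overlap and a log2 fold change of 0.84 ± 0.13 (adjusted p = 0.000104). RAB3D, a form found on secretory granules of exocrine and endocrine cells, went the other way. It had 12.4, 16.9 and 23.8 CPM in sorted vehicle libraries, against 21.8, 28.02 and 40.4 CPM in unsorted vehicle libraries.

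RAB3D was lower in the sorted library in 6 of 6 pairs in both comparisons. Within the sorted E2, sorted vehicle and unsorted vehicle groups, its replicates 4 to 6 all lay above replicates 1 to 3. Its log2 fold change was -0.75 ± 0.18 (adjusted p = 0.00315) in vehicle and -0.89 ± 0.17 (adjusted p = 0.000625) in E2 libraries, and only in E2 libraries did the groups not overlap. RAB3B, RAB3C and RAB27B were not called, at -0.26 ± 0.15, 0.39 ± 0.21 and 0.07 ± 0.26 in vehicle libraries. RAB3B had a call in 1 depth set in each comparison, and in vehicle libraries it was at -0.04 in replicates 1 to 3 and -0.46 (adjusted p = 0.00661) in replicates 4 to 6.

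Priming factors, which ready docked granules for fusion, included the largest fall among the genes. UNC13A, a priming factor that opens syntaxin for SNARE assembly, had 176, 191 and 225 CPM in sorted vehicle libraries, against 52.1, 81.3 and 99.7 CPM in unsorted vehicle libraries. No library crossed over, and the log2 fold change was 1.27 ± 0.14 (adjusted p = 4.12e-06). RIMS2, an active-zone scaffold that binds RAB3, had 42.8, 58.6 and 81.0 CPM in sorted vehicle libraries, against 25.4, 29.3 and 35.8 CPM in unsorted vehicle libraries.

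RIMS2 likewise did not overlap, with a log2 fold change of 1.02 ± 0.15 (adjusted p = 7.19e-05). CADPS2 (ENSOARG00000000193), a priming factor of dense-core granules, was lower in sorted cells, with 4.91, 8.61 and 13.1 CPM in sorted vehicle libraries, against 19.1, 20.6 and 31.4 CPM in unsorted vehicle libraries. Its log2 fold change was -1.35 ± 0.23 (adjusted p = 0.000276) in vehicle and -1.31 ± 0.25 (adjusted p = 0.000575) in E2 libraries, without overlap in either. The span of CADPS2, introns included, overlaps that of RNF133 in the RefSeq annotation, and whether the 2 genes share counted reads was not tested. Its paralog CADPS rose instead, by 0.95 ± 0.14 in vehicle and 0.68 ± 0.15 in E2 libraries. UNC13B was not called, at 0.15 ± 0.11 in vehicle and 0.03 ± 0.11 in E2 libraries. In vehicle replicates 4 to 6 alone, fitted with the replicate block, UNC13B was called higher (0.22, adjusted p = 0.02). Its vehicle pairs of replicates 1 to 3 were at 0.917 to 1.26, sorted over unsorted.

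Cell type markers moved with the sort, and their part in these results was not tested. In vehicle libraries, 4 of 4 lactotrope, 2 of 4 somatotrope, 1 of 3 corticotrope and 2 of 4 thyrotrope markers were also higher in sorted cells, and TBX3, on the thyrotrope list, was lower. TRHR, the receptor of thyrotropin-releasing hormone, stands in both the lactotrope and the thyrotrope list. Of the markers of non-hormone cells, 5 of 8 tested endothelial genes, 2 of 6 immune genes, 6 of 7 genes of folliculostellate and stem cells and 7 of 10 of fibroblasts and pericytes were lower. S100B, DCN and CD3E were higher. The summed fibroblast and pericyte level was 1098 to 2337 CPM in sorted vehicle libraries, against 6313 to 15370 CPM in unsorted vehicle libraries. The folliculostellate and stem cell sum was 881 to 1884 CPM in sorted vehicle libraries, against 4274 to 6015 CPM in unsorted vehicle libraries. None of the 4 red blood cell genes with a row was tested, and ALAS2 was at 0 in all vehicle libraries.

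Other genes of the pathway were read from 4 lists of 98 genes, of which 77 were tested in vehicle libraries. There 33 were higher (42.9%), 13 were lower (16.9%) and 31 were not called, against 24.4% higher and 25.8% lower of all genes. The median log2 fold change of the 77 was 0.29, against 0.02 over all tested genes. By list, 58.8% of priming, scaffold and tethering genes and 47.8% of processing, biogenesis and vesicle membrane genes were higher. The share was 36.8% on the list of NSF and other SNAREs and 27.8% for calcium sensors and Rab effectors. These lists, too, were chosen with earlier results of these data known. Among the largest rises were ERC2, an active-zone scaffold, at 1.58 ± 0.22, and RIMBP2, which links RIM proteins to calcium channels, at 1.43 ± 0.14. The 3 largest falls were PCSK7 at -2.65 ± 0.22, SLC18A2, the vesicular monoamine transporter, at -1.80 ± 0.52, and SYTL2, a RAB27 effector, at -1.68 ± 0.26. PCSK7, a convertase of the constitutive pathway, lies 222 bases from TAGLN, a smooth muscle gene, in the RefSeq annotation. PCSK7 averaged 414 CPM in sorted vehicle and 2594 CPM in unsorted vehicle libraries. TAGLN averaged 462.4 CPM in sorted vehicle and 3020 CPM in unsorted vehicle libraries. Whether reads of TAGLN enter the PCSK7 count was not tested.

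In E2 libraries 35 of 78 pathway genes were higher (44.9%) and 15 lower (19.2%), against 25.8% and 26% of all genes. By list, the share higher ran from 31.6% for calcium sensors and Rab effectors to 58.8% for priming, scaffold and tethering genes. The largest rises were RIMBP2 at 1.96 ± 0.15, PCLO, the scaffold piccolo, at 1.83 ± 0.18 and ERC2 at 1.59 ± 0.19. The largest falls there were PCSK7 at -2.57 ± 0.26, SYT16 at -1.998 ± 0.70 and SYTL3, another RAB27 effector, at -1.78 ± 0.35. NSF, which takes SNARE complexes apart, rose by 0.77 ± 0.11 in vehicle libraries.

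**Figure D3:**
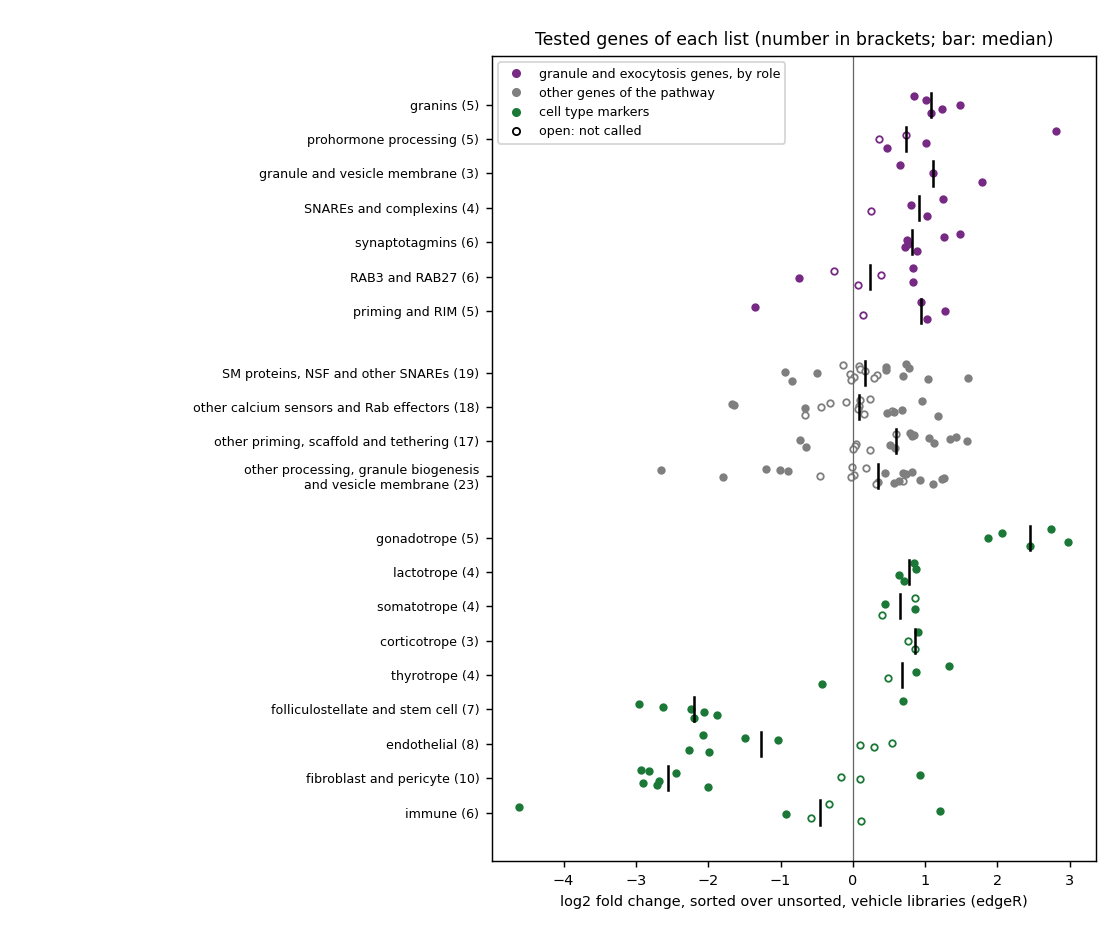
Log2 fold change of sorted over unsorted vehicle cells for each tested gene of the granule and exocytosis roles (purple), the other pathway lists (grey) and the cell type markers (green), with the list median as a bar and open points for genes not called. Gonadotrope markers lie furthest right (median 2.45) and fibroblast and pericyte markers furthest left (median -2.56), with the granins at a median of 1.08.

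The second question is what 6 h of E2 did to these genes. In sorted cells, E2 against vehicle, none of the 34 genes was called with edgeR, and 2, RAB3A and RAB27A, had an unadjusted p under 0.05. DESeq2 also called 0 and gave the same 2 genes an unadjusted p under 0.05. Of all 14334 genes tested, 1.11% were called higher and 0.258% lower. In unsorted cells none of the 34 was called either, with RAB3A alone under an unadjusted p of 0.05 in both tools, against 0.212% of all genes higher and 0.0331% lower. E2 and vehicle libraries overlapped for all 34 genes in both kinds of cell, while they did not for 1.14% of all genes upward and 0.405% downward in sorted cells and for 0.431% and 0.106% in unsorted cells. The median log2 fold change of the 34 genes was -0.08 in sorted and -0.03 in unsorted cells.

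Same-numbered libraries deviated together in these data, so each comparison was also fitted with the replicate number as a block. With the block, 1 of the 34 genes was called higher and 8 lower in sorted cells, where 7.03% of all genes were called higher and 6.2% lower. The 8 became 3 without replicate 1 or 5 and 5 without replicate 2 or 6. In unsorted cells 1 was called higher and 3 lower, where 2.86% of all genes were called higher and 2.37% lower, and the 3 became 1 without replicate 6. Values called blocked come from that fit.

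**Figure D4:**
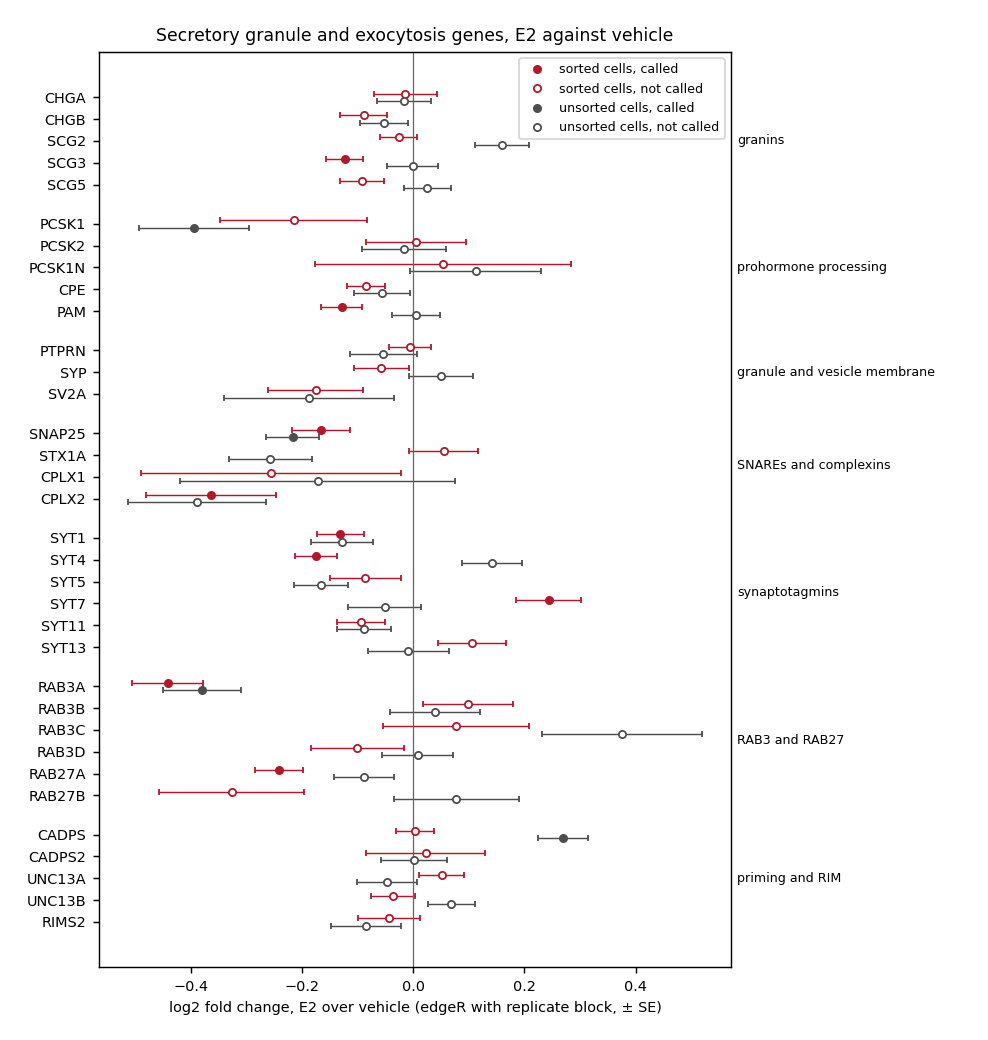
Blocked log2 fold change of E2 over vehicle for each of the 34 genes, grouped by role, in sorted cells (red) and unsorted cells (grey), with the edgeR standard error as bars. Filled points passed an adjusted p of 0.05. RAB3A lies near -0.4 in both kinds of cell, and CADPS lies near 0 in sorted and at 0.27 in unsorted cells.

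RAB3A had the largest fall among the genes called in sorted cells. It had 29.97, 43.0 and 50.2 CPM in sorted E2 libraries, against 44.9, 53.2 and 67.7 CPM in sorted vehicle libraries. The 2 groups overlapped, but the E2 library was the lower in 6 of 6 pairs, at 0.629 to 0.888 of its vehicle partner. The log2 fold change was -0.44 ± 0.13 (adjusted p = 0.186) without the block and -0.44 ± 0.06 (adjusted p = 4.09e-05) blocked, and it was -0.45 in replicates 1 to 3 and -0.44 in replicates 4 to 6. In unsorted cells RAB3A had 16.1, 25.2 and 27.4 CPM in E2 libraries, against 23.7, 33.6 and 34.5 CPM in vehicle libraries. E2 was lower in 5 of 6 pairs, with replicate 1 the exception, and the blocked log2 fold change was -0.38 ± 0.07 (adjusted p = 0.00139). Both calls held without each replicate number in turn.

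RAB27A had 141, 148.5 and 188 CPM in sorted E2 libraries, against 163, 184 and 198 CPM in sorted vehicle libraries. It was lower with E2 in 6 of 6 pairs, at 0.779 to 0.946 of the vehicle partner, with a blocked log2 fold change of -0.24 ± 0.04 (adjusted p = 0.000389, and 0.362 without the block). SYT4 had 224, 241 and 313 CPM in sorted E2 libraries, against 240.4, 278 and 352 CPM in sorted vehicle libraries. SYT4 too was lower in 6 of 6 pairs, and the blocked log2 fold change was -0.18 ± 0.04 (adjusted p = 0.00239, and 1 without the block). Both calls held without each replicate number in turn. In unsorted cells RAB27A and SYT4 were not called, at blocked values of -0.09 ± 0.05 and 0.14 ± 0.05.

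**Figure D5:**
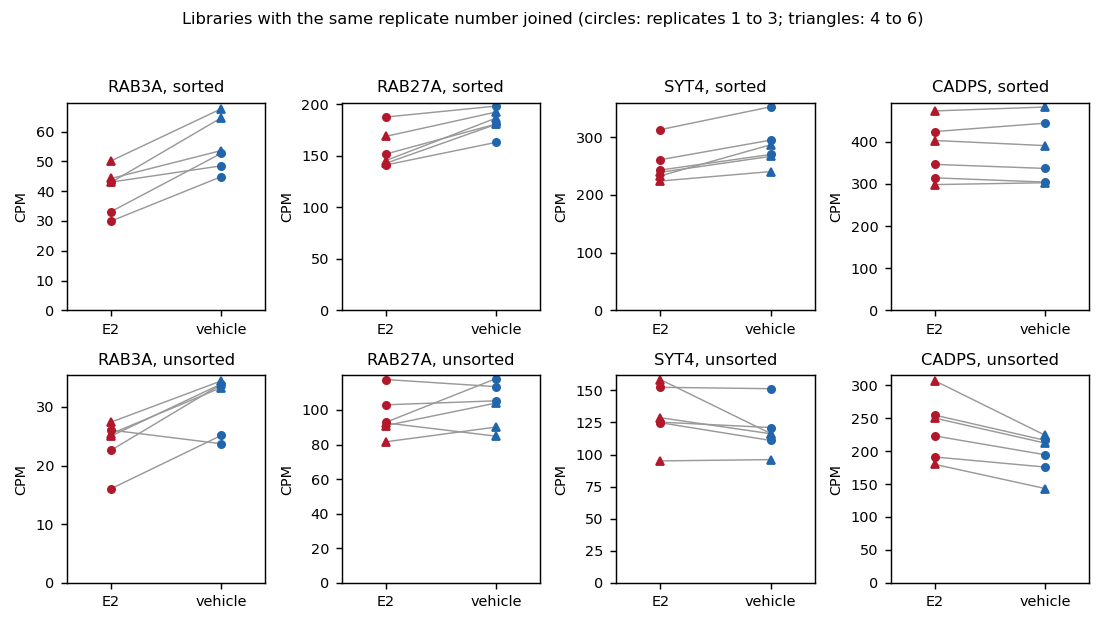
CPM of RAB3A, RAB27A, SYT4 and CADPS in E2 (left) and vehicle (right) libraries of sorted (top) and unsorted (bottom) cells, with libraries of the same replicate number joined. In sorted cells all 6 lines of RAB3A, RAB27A and SYT4 are lower on the E2 side, and in unsorted cells all 6 lines of CADPS are higher on the E2 side.

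CADPS (ENSOARG00000011671) was the gene called higher in unsorted cells. It had 179.7, 236 and 307 CPM in unsorted E2 libraries, against 143, 203 and 224 CPM in unsorted vehicle libraries. The groups overlapped, yet the E2 library was the higher in 6 of 6 pairs, at 1.09 to 1.37 times its partner. The blocked log2 fold change was 0.27 ± 0.04 (adjusted p = 0.000483, and 1 without the block), and the call held without each replicate number in turn. In sorted cells CADPS had 298, 374 and 473 CPM with E2, against 303, 364 and 482 CPM with vehicle, and a blocked value of 0.00 ± 0.03.

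SYT7 was the gene called higher in sorted cells, with 66.3, 94.0 and 141 CPM in sorted E2 libraries, against 62.6, 78.6 and 99.2 CPM in sorted vehicle libraries. All 6 pairs were higher with E2, at 1.04 to 1.43 times the vehicle partner. The blocked log2 fold change was 0.24 ± 0.06 (adjusted p = 0.0066), and the call was lost without replicate 5 (0.18, adjusted p = 0.0567).

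The other 5 blocked calls in sorted cells were falls that were each lost without some replicate numbers. SCG3 had 1848, 2055 and 2626 CPM in sorted E2 libraries, against 2033, 2296 and 2727 CPM in sorted vehicle libraries, a blocked log2 fold change of -0.12 ± 0.03 (adjusted p = 0.0156), lost without replicate 1, 2 or 5. PAM had 264, 273 and 407 CPM in sorted E2 libraries, against 293, 306 and 429 CPM in sorted vehicle libraries, at -0.13 ± 0.04 (adjusted p = 0.0238), lost without replicate 1, 3 or 5. Both genes were lower with E2 in 6 of 6 pairs.

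SNAP25 had 123, 148 and 187 CPM in sorted E2 libraries, against 137, 164.5 and 215.5 CPM in sorted vehicle libraries, at a blocked -0.17 ± 0.05 (adjusted p = 0.0416), lost without replicate 1, 2, 5 or 6. CPLX2 had 3.91, 8.45 and 11.2 CPM in sorted E2 libraries, against 6.32, 9.06 and 14.9 CPM in sorted vehicle libraries, at -0.36 ± 0.12 (adjusted p = 0.0429), lost without replicate 1, 5 or 6 and at -0.22 without replicate 5. SYT1 had 64.6, 103 and 132 CPM in sorted E2 libraries, against 70.7, 115 and 137 CPM in sorted vehicle libraries, at -0.13 ± 0.04 (adjusted p = 0.0445), lost without any number but 4. All of these groups overlapped.

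In unsorted cells the blocked test also called PCSK1 and SNAP25 lower. PCSK1 had 9.18, 14.1 and 17.6 CPM in unsorted E2 libraries, against 13.3, 16.4 and 22.3 CPM in unsorted vehicle libraries, at -0.39 ± 0.10 (adjusted p = 0.0254), lost without replicate 3, 5 or 6. SNAP25 had 47.3, 60.2 and 77.5 CPM in unsorted E2 libraries, against 59.6, 70.5 and 82.97 CPM in unsorted vehicle libraries, at -0.22 ± 0.05 (adjusted p = 0.0063), lost without replicate 6. SNAP25 was lower with E2 in 6 of 6 unsorted pairs and PCSK1 in 5 of 6.

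SCG2, the most changed of the tested granins by the sort, was not called with E2 in either kind of cell. Its medians were 5884 CPM in sorted E2 and 5912 CPM in sorted vehicle libraries, a blocked log2 fold change of -0.03 ± 0.03. In unsorted cells they were 2274 CPM in E2 and 1907 CPM in vehicle libraries, and all 6 pairs were higher with E2, at a blocked 0.16 ± 0.05 (adjusted p = 0.0633). CHGA and CHGB had blocked values of -0.01 ± 0.06 and -0.09 ± 0.04 in sorted cells and of -0.02 ± 0.05 and -0.05 ± 0.04 in unsorted cells.

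Cell type markers moved in part with E2, and their part in these results was not tested. GNRHR, the GnRH receptor, averaged 22.1 CPM in sorted E2 and 5.63 CPM in sorted vehicle libraries (log2 fold change 1.98, adjusted p = 0.0175), and TRHR averaged 16.3 CPM in sorted E2 and 32.7 CPM in sorted vehicle libraries (-1.001, adjusted p = 0.0226). NEUROD4, on the somatotrope list, averaged 49.96 CPM in sorted E2 and 18.2 CPM in sorted vehicle libraries (1.46, adjusted p = 0.00102). In unsorted cells GNRHR averaged 5.07 CPM with E2 and 0.719 CPM with vehicle (2.86, adjusted p = 0.0157), and NEUROD4 averaged 27.04 CPM with E2 and 13.8 CPM with vehicle (0.98, adjusted p = 0.0415). With the block, 3 of 4 somatotrope markers were higher with E2 in each kind of cell. Of the 5 tested gonadotrope markers, GNRHR was then higher and FSHB lower in each. Blocked calls of lactotrope markers were 0 higher and 2 lower of 4 in sorted cells and 1 higher and 2 lower in unsorted cells, and those of thyrotrope markers were 1 higher and 2 lower of 4 in sorted cells and 1 higher and 1 lower in unsorted cells. Of the markers of endothelial, immune, folliculostellate or stem cells, and fibroblasts or pericytes, 0 were called in either kind of cell, with or without the block. Between depth sets, the blocked value of PCSK1 in unsorted cells was -0.13 in replicates 1 to 3 and -0.50 in replicates 4 to 6.

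The third question is whether the E2 effect differed between sorted and unsorted cells. None of the 34 genes was called for that difference with edgeR, without or with the block, or with DESeq2, and 0 had an unadjusted p under 0.05 in edgeR without the block or in DESeq2. Across all 15134 genes tested, 0.0264% were called higher and 0% lower, and 0.33% and 0.132% with the block. The block here gave each replicate number the same term in all groups. E2 and vehicle libraries were therefore not paired separately within sorted and within unsorted cells. With this block, 4 genes had an unadjusted p under 0.05. STX1A and SYT7 stood higher in sorted minus unsorted, at 0.30 ± 0.11 and 0.30 ± 0.13, and SYT4 and CADPS lower, at -0.32 ± 0.09 and -0.26 ± 0.08. Their adjusted p-values were 0.498, 0.838, 0.231 and 0.333. In this fit the E2 effects on SYT4 and CADPS were not shown to differ between sorted and unsorted cells, and a fit with pairing inside each kind of cell was not run.

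Of the other pathway genes 0 were called with E2 in sorted or unsorted cells by edgeR without the block. With it, 7 rose and 7 fell of 76 in sorted cells, and 2 rose and 6 fell of 80 in unsorted cells. Of all genes, the same fit called 7.03% higher and 6.2% lower in sorted cells and 2.86% higher and 2.37% lower in unsorted cells, so the rises in unsorted cells and both counts in sorted cells were near the share of all genes. The 3 largest blocked rises in sorted cells were SYT9, a calcium sensor of dense-core granules, at 0.79 (adjusted p = 2e-06), BAIAP3, a priming factor of the UNC13 family, at 0.61 (adjusted p = 2.62e-05), and BSN, the scaffold bassoon, at 0.34 (adjusted p = 0.000284). SYT9 averaged 21.2 CPM in sorted E2 and 12.8 CPM in sorted vehicle libraries, and 21.4 CPM in unsorted E2 and 12.1 CPM in unsorted vehicle libraries.

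The 3 largest blocked falls in sorted cells were RPH3AL, a RAB3 and RAB27 effector, at -0.48 (adjusted p = 0.00451), SYT14 at -0.33 (adjusted p = 0.00876) and STX2, a plasma membrane syntaxin, at -0.30 (adjusted p = 0.000125). In unsorted cells SYT9 rose by 0.89 (adjusted p = 2e-07) and BAIAP3 by 0.64 (adjusted p = 0.046), while RIMBP2 changed by -0.59 (adjusted p = 3.62e-05), PCLO by -0.56 (adjusted p = 0.035) and RPH3AL by -0.33 (adjusted p = 0.0173). MADD, an exchange factor of RAB3, was lower with E2 in both, at -0.11 (adjusted p = 0.0409) in sorted and -0.26 (adjusted p = 0.000813) in unsorted cells.

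The genes also differed in how evenly replicates agreed. SCG5 in unsorted E2 libraries was the tightest, with its highest level 1.14 times its lowest, and UNC13A in sorted E2 libraries was at 1.18. CPLX1 in sorted E2 libraries spread the most, at 8.62 times, and PCSK2 in unsorted vehicle libraries reached 4.39 times. CHGA and SYT5 were higher in all of replicates 4 to 6 than in all of replicates 1 to 3 in each of the 4 groups. None of the genes described here was lower so in all 4. The share of all genes with either pattern was not computed, so neither is read as a trait of these genes. CHGA medians were 277 CPM in replicates 4 to 6 and 127 CPM in replicates 1 to 3 of sorted E2 libraries, and 299 CPM in replicates 4 to 6 and 143 CPM in replicates 1 to 3 of sorted vehicle libraries.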

How the data were processed

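The deposited values are raw read counts per gene for each library, made by the authors with featureCounts 1.5.1 per the submitters' processing notes. The sources used here name no aligner, build or strand setting. Of the 27054 features, 9994 have no gene name. TruSeq libraries started from 500 ng of RNA, per the labels' protocols. The authors' own tables of comparisons were not used here.

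Each of 5 comparisons was fitted on all genes that passed filterByExpr in the groups compared, with edgeR 4.0.16 in R 4.3.3 (TMM scaling, robust glmQLFit, 2-sided glmQLFTest), and p-values were adjusted by Benjamini-Hochberg over all of them. The standard error is the log2 fold change over the square root of F. CPM use TMM-scaled library sizes over all 24 libraries. The scripts were tested on simulated data. Reads are not independent molecules, so depth bounds counting error only.

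Pairing was checked in the counts, since the labels do not say what a replicate number marks: same-numbered libraries had r = 0.29 to 0.859 between their deviations from the group means (log2 CPM of 15134 genes), above 0.1 in 36 of 36 pairs, and each correlated best with its own number. The fit without the block is the main one and the blocked value stands beside results it changes. Alternatives were the block, DESeq2 1.42.0, relative-log-expression (RLE) size factors, no filter, each depth set, and leaving out each library, and, chosen after seeing the data, the block without each replicate number and with RLE factors.

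The genes, roles and lists were chosen with earlier results of these data known. Full values are given for genes called with E2 and, in each role, for the 2 largest and the smallest fold changes of the sort in vehicle libraries, and for the 3 largest rises and falls of the pathway lists, of which 1 gene is not reported here. PCSK2, NSF, MADD and SCG2 with E2 were added after their values were seen. Of the 38 genes, 36 have a symbol in RefSeq (assembly ARS-UI_Ramb_v3.0), used only for neighbours and overlaps.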

Additional observations from a re-analysis of the deposited data

Results flagged for a closer look

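A library stood apart from the other 5 of its group in 3 of 136 combinations of gene and group, by Dixon's test on the gap to its nearest neighbour. Chance alone marks about 1 in 20 groups. PAM was at 406.6 CPM in sorted E2 replicate 2, with the others at 264.4 to 303.4 CPM, and at 428.7 CPM in sorted vehicle replicate 2, with the others at 292.8 to 328.6 CPM. RAB27B was at 8.057 CPM in unsorted E2 replicate 2, with the others at 4.168 to 5.179 CPM. Without sorted E2 replicate 2, the log2 fold change of PAM in sorted against unsorted E2 libraries was 0.21 (adjusted p = 0.144, edgeR).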

How the results depend on the processing

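In sorted against unsorted cells the counts of these genes kept within 1.5 times under every alternative run, at 23 to 25 higher and 2 to 2 lower without each library in turn, in vehicle and in E2 libraries alike. Genes called overall then ranged from 6170 to 7368 (vehicle) and 6398 to 7618 (E2). The calls that moved were those of CHGA, PAM, PTPRN, PCSK2, PCSK1N, RAB3B and UNC13B, and the replicate block changed that of PCSK2 and no other. The E2 counts moved with the pairing. With the replicate block, 1 of the genes was higher and 8 lower in sorted cells, and 1 and 3 in unsorted cells. In replicates 1 to 3 alone, 1 was lower in sorted cells, where 174 of all 13273 tested genes were lower. In replicates 4 to 6 alone, 3 were lower in sorted cells, where 560 of all 14928 were lower. Unsorted cells of replicates 4 to 6 had 1 higher and 3 lower, where 399 and 331 of all 15891 were. Leaving out a library without the block gave 0 to 0 in every E2 comparison, and leaving out a replicate number with the block gave 0 to 1 higher and 3 to 11 lower in sorted cells (3 without replicate 1 or 5, 5 without replicate 2 or 6) and 1 to 1 higher and 1 to 4 lower in unsorted cells. Over all genes, E2 calls in sorted cells were 196, against 1896 with the block, 399 with DESeq2, 563 in replicates 1 to 3, 1277 in replicates 4 to 6 and 125 to 208 without a library. In unsorted cells they were 37, against 790, 122, 67, 730 and 11 to 48 in the same order. For the difference of the effects they were 4, against 70, 16, 2, 47 and 0 to 4, and 0 with no filter on low counts. The cause of these shifts was not tested beyond the pairing check. Replicates 1 to 3 are shallow, which limits what they show for low genes such as CPLX1. Over single genes, 3426 values kept their status, which includes genes called in neither fit. A call was gained in 31 and lost in 50, and 0 with a call in either fit reversed. Changes of sign between fits without a call were not counted.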
